A study of Mus musculus with 8 samples.

Results

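In 169 regions of the mouse genome the strongest point of acetylated histone H3 (H3ac), read by ChIP-seq, stood at another place in RAW 264.7 macrophages labelled CuNZ@Gel than in those labelled Gel. ChIP-seq pulls down chromatin with an antibody and sequences its DNA, and RAW 264.7 is an established mouse macrophage line. The 169 were drawn from 81544 regions, made by merging the peaks of the 4 libraries on 19 autosomes, X and Y wherever peaks overlapped by at least 1 bp, with positions in build GRCm39. The strongest point, or summit, of a region in a library was taken from its peak with the highest fold enrichment over background. A region was chosen when it had peaks in all 4 libraries, when its peaks covered under 4000 bp on average in Gel and more than 40% of that length in CuNZ@Gel, when the summits of the 2 libraries of a treatment lay within 200 bp of each other, and when the mean summits of the treatments lay 500 bp or more apart. Of the 81544 regions, 21909 had peaks in all 4 libraries and 19990 of these met the width conditions. The 169 chosen regions were thus 0.845% of the 19990.

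The CuNZ@Gel group was 2 immunoprecipitated libraries of RAW 264.7 cells with the treatment label CuNZ@Gel; the series title speaks of a sprayable nanozyme hydrogel and of diabetic wound healing. The Gel group was 2 such libraries with the treatment label Gel. All 4 had an antibody to acetylated H3 and shared a protocol of 48 h of exposure to extract, fixation in 1% formaldehyde for 10 min and shearing to 150 to 350 bp; that text speaks of CuNZ@Gel extracts alone, so the handling of the Gel cells rests on their treatment label. Whether replicates were grown as separate cultures is not stated, so their spread may be technical, and all come from 1 line. A further 4 input libraries were not analysed here.

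Acetyl groups on the tail of histone H3 are placed by acetyltransferases such as p300 and CBP and removed by histone deacetylases. They mark active promoters and enhancers, where acetylated nucleosomes flank a stretch that is kept free of nucleosomes for transcription factors, so that a single active element can carry a maximum on either side of its open stretch. In macrophages such elements are set up by lineage factors such as PU.1 and respond to inflammatory signals. The summit of a peak is the base where most immunoprecipitated fragments pile up, and it says which flank or which of neighbouring elements carried most of the mark, not how much of the mark there was.

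The number of fragments at each summit was recovered from the deposited values, and the commonest background of a list served as its measure of depth. It was 3.45 and 2.46 fragments per base in CuNZ@Gel replicates 1 and 2, against 4.62 and 4.28 in Gel replicates 1 and 2. The CuNZ@Gel libraries were the shallower ones, with 40075 and 34693 peaks on chromosomes, against 58612 and 60483 in the Gel libraries. With fewer fragments the place of a maximum is less certain, and moves are given by depth further on.

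The summit distance that chose the regions had a median of 664 bp between the treatments (quartiles 554.5 and 845.5 bp), with a longest move of 2148.5 bp. Inside the treatments, the summits of the same regions lay a median of 45 bp apart in CuNZ@Gel and 36 bp apart in Gel. Of the 169 moves, 65 were of 500 to under 600 bp, 53 of 600 to under 800 bp, 25 of 800 to under 1000 bp, 15 of 1000 to under 1500 bp and 11 longer. Most moves were thus under 800 bp, near the lower bound of the rule. The nearest ones inside it had moves of 500, 500.5 and 502.5 bp, and the nearest ones outside it had 496, 495.5 and 493.5 bp. There were 113 regions with moves of 400 to under 500 bp, so the bound cuts through a continuous decline.

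**Figure D1:**
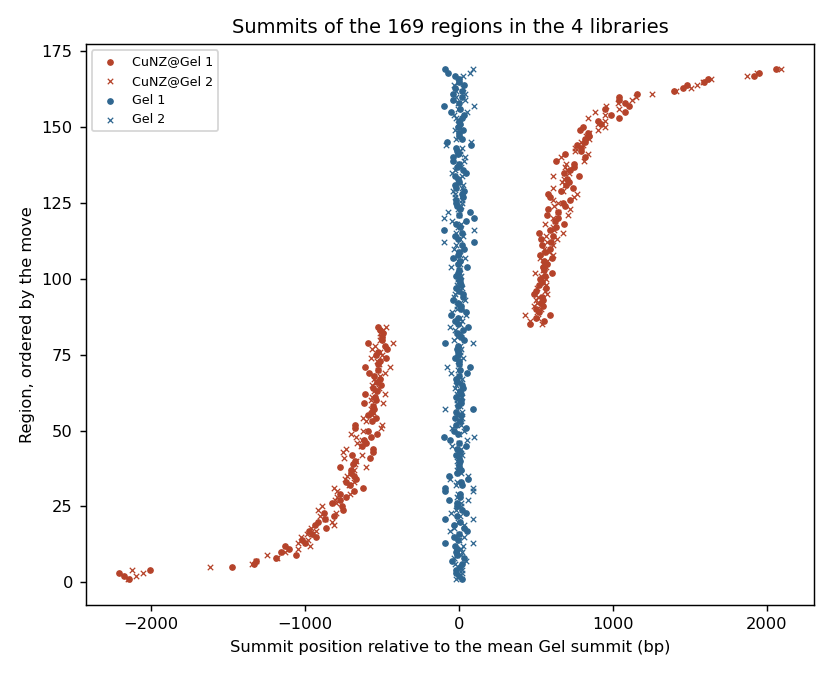
Summit position of each of the 169 regions in the 4 libraries, in bp relative to the mean Gel summit on the x axis; each row is a region, ordered by the signed move. The mean CuNZ@Gel summit (red, circles for replicate 1 and crosses for replicate 2) lies 500 bp or more from the mean Gel summit by choice of the regions, to the right in 85 and to the left in 84; Gel summits (blue) stay within 100 bp of their mean.

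Summits of shared regions mostly stayed in place. Among the 13320 regions whose summits lay within 200 bp inside each treatment, the median distance between the CuNZ@Gel and Gel mean summits was 35 bp, and 80.0% had a distance under 100 bp. The 169 regions were 1.27% of these 13320. The rule used this contrast, so nothing is read from either share.

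The same rule was applied to the other 2 ways to pair the 4 libraries, each pairing a CuNZ@Gel with a Gel library. It found 74 regions (0.37% of the 19990, and 0.576% of those with summits within 200 bp inside each pair) when the same-numbered libraries were paired. It found 80 regions (0.4% and 0.622%) when CuNZ@Gel replicate 1 was paired with Gel replicate 2. The count for CuNZ@Gel against Gel was 2.11 times the larger of these. Moves of 1000 bp or more numbered 26 for CuNZ@Gel against Gel, and 9 and 10 in the other pairings. Which regions were chosen depended on how the summit was taken: with the summit of the widest peak, 204 regions met the rule, and 105 of them were among the 169. The median move was 664 bp for CuNZ@Gel against Gel and 647 and 672 bp for the other pairings. The pairing by treatment thus gave more regions with a moved summit, while median moves lay within 25 bp of each other. With 1 library left out, each pairing sets 1 lone library against 2. Without Gel replicate 1 the treatment pairing gave 352 with a lone Gel library, and the others 384 and 432 with a lone CuNZ@Gel library. Without Gel replicate 2 these counts were 350, and 433 and 366. Without CuNZ@Gel replicate 1 the treatment pairing gave 547 with a lone CuNZ@Gel library, and the others 251 and 275 with a lone Gel library. Without CuNZ@Gel replicate 2 these counts were 588, and 326 and 330. In each case counts were larger where a CuNZ@Gel library stood alone, so they cannot say whether the order rests on any 1 library.

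**Figure D2:**
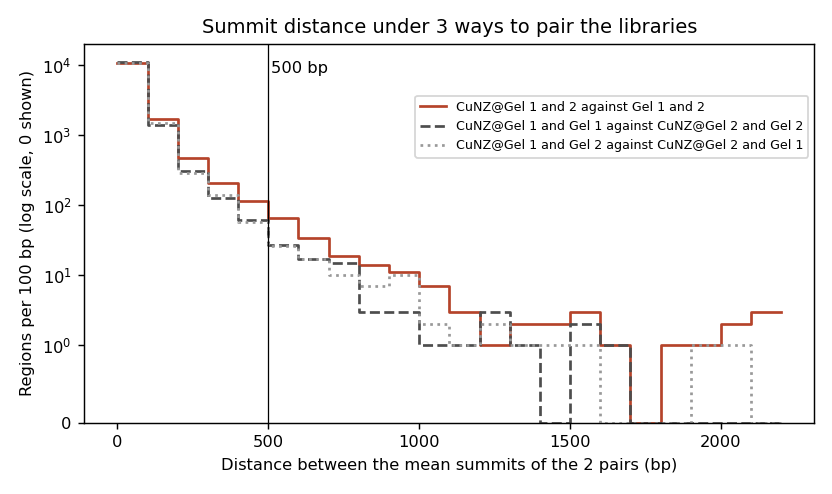
Number of regions (log scale with 0 shown) per 100 bp of distance between the mean summits of 2 pairs of libraries, for regions whose summits lay within 200 bp inside each pair. The line for CuNZ@Gel against Gel (red) lies above both other pairings (dashed and dotted) from 100 to 1200 bp. To the right of the 500 bp mark the 3 lines hold 169, 74 and 80 regions.

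Library by library, summit distances between the treatments were near those inside CuNZ@Gel. Over the 19990 regions the median summit distance was 66 bp between the CuNZ@Gel libraries and 43 bp between the Gel libraries. It was 56 to 68 bp for the 4 pairs of a CuNZ@Gel with a Gel library. Summits 500 bp or more apart were found in 5.80% of regions inside CuNZ@Gel, in 3.93% inside Gel and in 5.24 to 5.65% across treatments. A move of 500 bp between 2 single libraries was therefore no rarer between replicates of CuNZ@Gel than between treatments. The 169 regions are those in which both libraries of each treatment held to the same place, as the rule asks.

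The direction along the chromosome was even. The CuNZ@Gel summit lay at the higher coordinate in 85 of the 169 regions, or 50.3%, and at the lower one in 84. Coordinates take no account of strand, so nothing is read from this even split. In 138 regions (81.7%) the summits of the treatments lay on opposite sides of the region's midpoint. The CuNZ@Gel summit was the one nearer the midpoint in 89 regions and the Gel summit in 80. The median distance to the nearest end of the region was 519 bp for the CuNZ@Gel summit and 537 bp for the Gel summit. Most moves thus crossed the midpoint, and a move spanned a median of 39.6% of the region's width. The bound of 500 bp favours such crossings, and their share in the other pairings was not counted. Strand and distance to gene starts could not be added, since no annotation of the files' build was used here.

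The 3 longest moves were over 2100 bp. On chromosome 13 from 23755596 to 23758404, the summit lay 327 and 320 bp from the region's start in CuNZ@Gel replicates 1 and 2, against 2490 and 2454 bp in Gel replicates 1 and 2. Its summits held 40 and 29 fragments in CuNZ@Gel, against 115 and 116 in Gel. Peaks covered most of the region in all 4 libraries, with 2694 and 2517 bp under peaks in CuNZ@Gel and 2802 and 2809 bp in Gel. In height, meaning fragments divided by the library background, these summits were 11.6 and 11.8 in CuNZ@Gel and 24.9 and 27.1 in Gel, so the maximum of the Gel cells at the far end was also far taller. In CuNZ@Gel replicate 2, the peak that still lay over the Gel position reached 23 fragments. Fragments given for a peak over a position are those at that peak's own summit, which need not lie at the position.

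On chromosome 3 from 89301168 to 89304591, the summit lay 245 and 322 bp from the start in CuNZ@Gel, against 2418 and 2422 bp in Gel. A single peak covered both positions in all 4 libraries. Summit fragments were 44 and 28 in CuNZ@Gel and 73 and 67 in Gel, which in heights is 12.8 and 11.4 against 15.8 and 15.7. On chromosome 13 from 55168276 to 55171457, the summit lay 493 and 654 bp from the start in CuNZ@Gel, against 2687 and 2721 bp in Gel. Here CuNZ@Gel replicate 1 had separate peaks of 27 fragments over both positions and CuNZ@Gel replicate 2 had peaks of 25 and 24. The peaks thus differed by 0 and 1 fragment in CuNZ@Gel. Gel replicate 1 had 45 fragments in the peak over the CuNZ@Gel position and 63 in that over its own.

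Moves to the higher coordinate were nearly as long. On chromosome 11 from 103152858 to 103156209, the summit lay 2660 and 2694 bp from the start in CuNZ@Gel, against 510 and 689 bp in Gel. In CuNZ@Gel the region was broken into 2 peaks. The peak over the CuNZ@Gel position held 44 and 31 fragments and that over the Gel position 43 and 28. The Gel libraries had 1 unbroken peak of 70 and 63 fragments. On chromosome 5 from 124187462 to 124190370, the summit lay 2501 and 2457 bp from the start in CuNZ@Gel, against 558 and 614 bp in Gel. This region was one of 8 that were wider in CuNZ@Gel, with 2693 bp against 2194 bp under peaks. Its heights were 13.9 and 17.1 in CuNZ@Gel and 11.7 and 12.1 in Gel. Where Gel had separate peaks, the one over the CuNZ@Gel position held 36 and 37 fragments and the one over the Gel position 54 and 52. In CuNZ@Gel replicate 2 the order was the other way, as the rule asks. There the peak over its own position held 42 fragments and that over the Gel position 31.

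The remaining regions of the 10 longest moves lay on chromosomes 8, 5, 11, 11 and 17. Of the 10, 5 moved to the higher and 5 to the lower coordinate, and mean summit height was lower in CuNZ@Gel in 6 and higher in 4. The ratio of CuNZ@Gel to Gel height ran from 0.450 to 1.34. On chromosome 11 from 87640598 to 87643534, 1 peak covered the region in all 4 libraries, and the summit lay 1794 and 1783 bp from the start in CuNZ@Gel, against 204 and 197 bp in Gel. The summits held 61 and 42 fragments in CuNZ@Gel and 125 and 127 in Gel. On chromosome 11 from 69299648 to 69303277, the CuNZ@Gel libraries had 4 and 3 peaks, the tallest with 52 and 51 fragments, while the peak over the Gel position had 39 and 28. The Gel libraries had 1 and 2 peaks there, with summits of 90 and 92 fragments. On chromosome 8 from 71067440 to 71071520, the summit lay 1235 and 1118 bp from the start in CuNZ@Gel, against 3222 and 3262 bp in Gel. In CuNZ@Gel the separate peaks over the CuNZ@Gel position held 40 and 33 fragments and those over the Gel position 32 and 23. In Gel replicate 1 the peaks over the same positions held 45 and 51. The opposite order of these peaks follows from the choice of the region. On chromosome 5 from 149201866 to 149204687, the summit lay 2305 and 2290 bp from the start in CuNZ@Gel, against 284 and 428 bp in Gel. Heights were 13.6 and 13.4 in CuNZ@Gel and 10.8 and 9.35 in Gel.

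**Figure D3:**
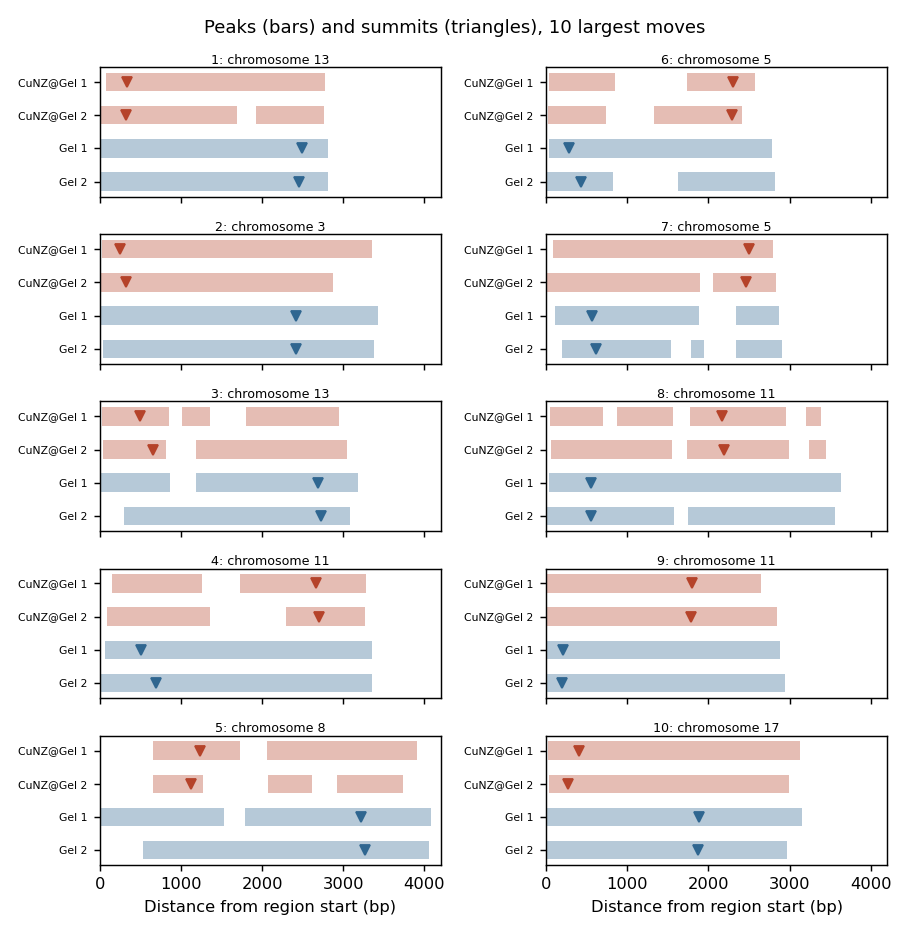
Peaks (bars) and summits (triangles) of the 10 regions with the longest moves, by distance from the region's start in bp; CuNZ@Gel libraries (red) stand above Gel libraries (blue). Both libraries of a treatment place the summit within 200 bp of each other, the treatments place it 1545.5 to 2148.5 bp apart, and in 3 of the 10 regions a single peak spans both positions in every library.

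The regions with the highest fold enrichment were mostly other ones. Ranked by the fold enrichment of their weakest library, the 10 top regions had lowest values of 12.4 to 20.5 and moves of 550.5 to 1545.5 bp. Only 1 of them, on chromosome 17 from 71139859 to 71143014, was also among the 10 longest. Its summit lay 401 and 262 bp from the start in CuNZ@Gel, against 1885 and 1869 bp in Gel, and held 96 and 59 fragments in CuNZ@Gel and 122 and 99 in Gel. Its heights overlapped, with 27.8 and 24.0 in CuNZ@Gel and 26.4 and 23.1 in Gel. The place of the maximum thus differed while its height did not stand apart from the spread between replicates.

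The first of the ranking lay on chromosome 9 from 75315313 to 75319213, with summits 2393 and 2413 bp from the start in CuNZ@Gel and 1848 and 1830 bp in Gel. Here the peaks in CuNZ@Gel were unequal, with 99 and 70 fragments at the CuNZ@Gel summit and 69 and 47 in the peak over the Gel position. In Gel replicate 2 the peak over the CuNZ@Gel position had 124 fragments and that over the Gel position 132. On chromosome 8 from 4727477 to 4728989, the summit lay 826 and 803 bp from the start in CuNZ@Gel, against 199 and 189 bp in Gel. The peaks of CuNZ@Gel were nearly level in this region, with 88 and 60 fragments at their own summit and 86 and 54 in the peak over the Gel position. The unbroken Gel peaks reached 166 and 141 fragments.

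In the other regions of this ranking a single peak covered both positions in all libraries, so no second height could be read. On chromosome 5 from 148987360 to 148989858 the summit lay 1250 and 1203 bp from the start in CuNZ@Gel, against 2160 and 2342 bp in Gel, and its height was 23.5 and 23.6 in CuNZ@Gel against 40.9 and 37.6 in Gel. On chromosome 5 from 43937110 to 43940262 the summit lay 2045 and 2040 bp from the start in CuNZ@Gel, against 2597 and 2606 bp in Gel, with heights of 25.5 and 23.2 against 40.3 and 47.0. On chromosome 4 from 134996428 to 135000087 it lay 2356 and 2480 bp from the start in CuNZ@Gel, against 3261 and 3327 bp in Gel, with heights of 21.2 and 17.1 against 32.7 and 36.7. Both CuNZ@Gel heights lay below both Gel heights in these regions. The share of all regions with such a separation was not counted. Lower heights in CuNZ@Gel were common, with a median ratio to Gel of 0.823 in the 13151 other regions with stable summits. On chromosome 13 from 94419950 to 94423335, by contrast, the heights were 20.6 and 21.1 in CuNZ@Gel and 21.9 and 20.1 in Gel, which overlap. There the summit lay 2170 and 2186 bp from the start in CuNZ@Gel, against 1675 and 1567 bp in Gel. On chromosome 1 from 9615668 to 9618111 the heights were 20.9 and 27.6 in CuNZ@Gel and 29.2 and 29.0 in Gel. By height, the CuNZ@Gel libraries differed more from each other than the nearer one did from Gel. Local background at this summit exceeded that of the library in every case. Fold enrichment, which is taken over local background, was 12.9 and 12.7 in CuNZ@Gel, against 17.6 and 22.4 in Gel. By fold enrichment the CuNZ@Gel libraries lay close together and both lay below Gel. Both remaining regions lay on chromosome 10. From 128327989 to 128331333 the heights were 16.5 and 18.3 in CuNZ@Gel and 24.0 and 24.5 in Gel, and from 11155921 to 11158562 they were 19.7 and 17.9 in CuNZ@Gel and 28.6 and 26.6 in Gel. Of the 10 regions in this ranking, 9 had a lower mean height in CuNZ@Gel and 1 a higher one.

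The regions differed in whether one peak joined both positions. A single peak lay over both the CuNZ@Gel and the Gel summit position in 86 and 69 of the 169 regions in CuNZ@Gel replicates 1 and 2, against 136 and 137 in Gel replicates 1 and 2. Separate peaks lay over them in 63 and 61 regions in CuNZ@Gel, against 24 and 22 in Gel. In 57 regions one peak spanned both positions in all 4 libraries. In 36 regions both Gel libraries had one spanning peak and neither CuNZ@Gel library had one, and in 0 regions was it the other way round. The Gel libraries were the deeper and more widely covered ones, and the part of depth in this count was not tested. Pairings across treatments gave the same order: of the 74 same-numbered regions, a spanning peak was found in 41 and 39 in CuNZ@Gel replicates 1 and 2, against 64 and 61 in Gel replicates 1 and 2. Of the 80 cross-numbered regions, it was found in 41 and 30 in CuNZ@Gel, against 65 and 67 in Gel.

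Where peaks were separate, the lead of one over the other was mostly small. In CuNZ@Gel replicates 1 and 2 the peak at the CuNZ@Gel summit had a median of 29 and 25 fragments and that at the Gel summit 26 and 19. The median ratio of the peak at the CuNZ@Gel summit to the peak at the Gel summit was 1.11 and 1.17 in CuNZ@Gel replicates 1 and 2. In Gel replicates 1 and 2 it was 0.843 and 0.834. This order follows from the choice of the regions. The exact 95% Poisson intervals of the fragments, which cover counting error only, overlapped between the peaks in 63 of 63 and 61 of 61 regions in CuNZ@Gel. They overlapped in 23 of 24 and 21 of 22 in Gel. Overlap of intervals is not a test of a difference, so whether a lead within a single CuNZ@Gel library exceeded counting error was not tested. The regions were chosen for 2 libraries giving the same order.

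**Figure D4:**
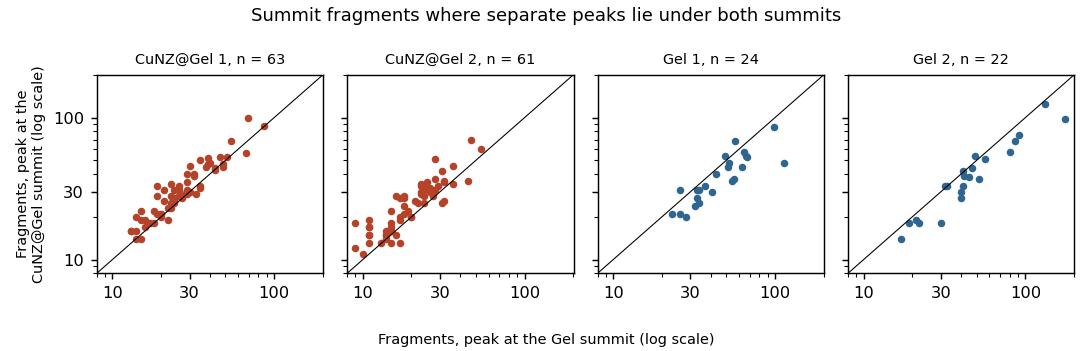
Summit fragments of the peak at the CuNZ@Gel summit (y axis, log scale) against the peak at the Gel summit (x axis, log scale), for regions in which separate peaks lay over both, with 63 and 61 regions in CuNZ@Gel replicates 1 and 2 and 24 and 22 in Gel replicates 1 and 2. Points lie mostly above the line of equality in CuNZ@Gel and below it in Gel, close to it in each; summits were chosen by fold enrichment over local background and not by fragments, so points can lie on the other side.

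Separate peaks over both positions in all 4 libraries were seen in 2 regions. On chromosome 1 from 93729817 to 93731485 the peaks over the CuNZ@Gel and Gel positions held 27 and 24 fragments in CuNZ@Gel replicate 1. They held 20 and 17 in CuNZ@Gel replicate 2, 40 and 43 in Gel replicate 1 and 27 and 40 in Gel replicate 2. On chromosome 8 from 84723104 to 84724685 these peaks held 28 and 26 fragments in CuNZ@Gel replicate 1 and 21 and 18 in CuNZ@Gel replicate 2. In Gel replicate 1 they held 53 and 67, and in Gel replicate 2 they held 51 and 56. The 2 positions lay 1403 and 953.5 bp apart, and the opposite rank of the peaks in the treatments follows from the choice of the regions. The lead was 2 or 3 fragments in CuNZ@Gel and 3 to 14 in Gel.

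At the other end, a summit could lie where the other treatment had no peak at all. The Gel summit position was bare of peaks in both CuNZ@Gel libraries in 13 regions, and the CuNZ@Gel position was bare in both Gel libraries in 6. Both held in 3 regions, which are named here because they stood out after their values were seen. On chromosome 2 from 119958558 to 119960919 the summits held 21 and 14 fragments in CuNZ@Gel and 25 and 19 in Gel. On chromosome 9 from 15452501 to 15453573 they held 22 and 15 in CuNZ@Gel and 24 and 18 in Gel, and on chromosome 15 from 100535797 to 100536841 they held 13 and 14 in CuNZ@Gel and 20 and 19 in Gel. These are weak summits, with a fold enrichment of 3.15 to 5.17, and a missing peak at such levels says only that the threshold was not passed.

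The 169 regions were wide, often broken up and low for their width. They covered a median of 1276.5 bp in CuNZ@Gel and 1838.5 bp in Gel, where the other 13151 regions with stable summits inside the treatments covered 711.5 and 991 bp. A move of 500 bp needs room, so they were also set beside the 6506 of those others with at least 1000 bp in Gel. Of the 169, 154 were that wide, and their median height was 9.50 in CuNZ@Gel and 11.6 in Gel, against 14.0 and 18.2 in the others. More than 1 peak was found in 53.9 and 49.4% of the 154 in CuNZ@Gel replicates 1 and 2 and in 25.3 and 20.1% in Gel replicates 1 and 2; in the others it was 29.6 and 30.9% in CuNZ@Gel and 11.3 and 11.1% in Gel. The regions found by the other pairings, at all widths, covered a median of 1849 and 1784 bp in Gel. Their median heights were 8.82 and 8.44 in CuNZ@Gel and 10.2 and 9.59 in Gel, beside 9.25 in CuNZ@Gel and 11.03 in Gel for all 169 regions. In CuNZ@Gel replicates 1 and 2 more than 1 peak was found in 50.3 and 47.3% of the 169, in 45.9 and 45.9% of the same-numbered regions and in 47.5 and 52.5% of the cross-numbered ones. In Gel replicates 1 and 2 the shares were 24.3 and 20.1% of the 169, or 41 and 34 regions, and the counts were 12 and 14 of the 74 same-numbered and 16 and 13 of the 80 cross-numbered regions. No test of these differences was made.

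The share of regions that met the rule was larger in wide regions, though not at every step. It was 0.163% of regions under 1000 bp in Gel, 1.24% from 1000 to under 1500 bp, 0.912% from 1500 to under 2000 bp and 2.37% from 3000 to under 4000 bp. In the widest class the other pairings gave 1.36 and 1.24%. By depth, the share was 0.691% where the lowest library had under 20 summit fragments, 1.10% from 20 to under 40, 0.824% from 40 to under 60 and 0.304%, or 3 of 988 regions, from 60 fragments up. The best counted regions thus had the smallest share, as they did in the other pairings, with 1 of 988 regions (0.101%) in each. Among the 23 chosen regions with at least 40 fragments in every library, 16 moved to the higher and 7 to the lower coordinate, and the other pairings gave 9 and 14 regions of this depth.

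**Figure D5:**
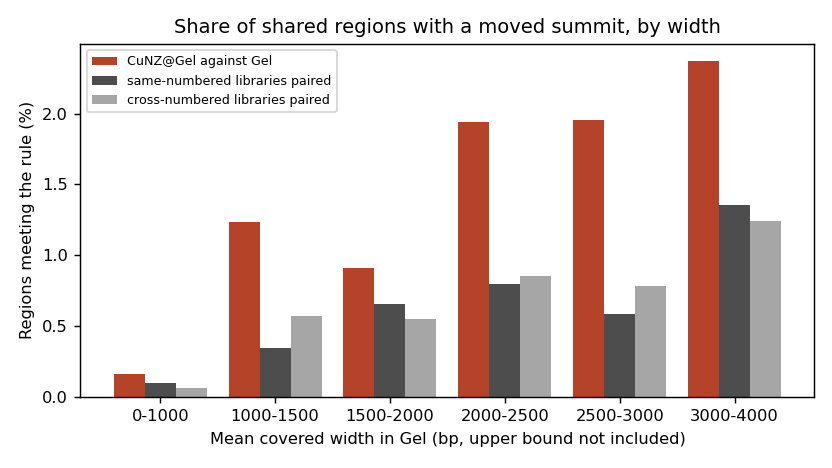
Share of shared regions that met the rule, in percent, by the mean length covered by peaks in Gel (bp), for CuNZ@Gel against Gel (red) and for both pairings across treatments (dark and light grey). The share for CuNZ@Gel against Gel is the highest bar in each of the 6 width classes and reaches 2.37% in the widest, where the grey bars reach 1.36 and 1.24%.

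In most of the 169 regions height and width were lower in CuNZ@Gel than in Gel, as in the other regions. Summit fragments had a median of 30 (13 to 99) and 23 (10 to 70) in CuNZ@Gel replicates 1 and 2, against 50 (17 to 196) and 47 (15 to 201) in Gel replicates 1 and 2. Divided by the library background, the ratio of CuNZ@Gel to Gel had a median of 0.843 (quartiles 0.714 and 1.01), against 0.823 in the other 13151 regions. It was above 1 in 44 of the 169 regions, or 26.0%, against 2496 of the 13151 others, or 19.0%. Among regions of at least 1000 bp in Gel the median ratio was 0.832 in the 154 chosen regions and 0.772 in the 6506 others. There the height was greater in CuNZ@Gel in 22.1% of the 154, or 34 regions, against 7.52% of the others, or 489. Beside regions of like width, the chosen ones thus more often had the greater height in CuNZ@Gel, a difference that was not tested. Those 6506 others were also taller, with median heights of 14.0 in CuNZ@Gel and 18.2 in Gel, against 9.50 and 11.6 in the 154. Of the regions found by the other pairings, 13 of the 74 same-numbered and 20 of the 80 cross-numbered had the greater height in CuNZ@Gel. These regions were of all widths, with median ratios of 0.839 and 0.850, beside 0.843 in the 169. Covered width in CuNZ@Gel was a median of 74.2% of that in Gel in the 169, against 74.6% in the 13151 others. Fewer cells with the mark at a place and less of the mark per cell cannot be told apart in these bulk samples.

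The covered stretch of CuNZ@Gel ended inside that of Gel on both sides at the median, which is here called the retreat. On the side of the Gel summit the outermost peak of CuNZ@Gel ended a median of 151.5 bp inside that of Gel, and on the side of the CuNZ@Gel summit 98 bp inside. The retreat was the larger one on the Gel side in 99 of the 169 regions. Over the 4 pairs of a CuNZ@Gel with a Gel library it was larger there in 92 to 102 regions. For the 118 moves of 500 to under 800 bp it was larger on the Gel side in 62.7%, with medians of 188 bp on the Gel side and 96.3 bp on the CuNZ@Gel side. For the 51 moves of 800 bp or more it was larger on the Gel side in 25, with medians of 79 bp on the Gel side and 118 bp on the CuNZ@Gel side, so the larger retreat on the Gel side was not seen in the longest moves. Over the 169 regions, CuNZ@Gel replicate 1 had median retreats of 77 and 97 bp on the Gel side from Gel replicates 1 and 2. Those of the shallower CuNZ@Gel replicate 2 were 167 and 143 bp. On the CuNZ@Gel side the medians were 63 and 56 bp for replicate 1 and 124 and 110 bp for replicate 2. The part of depth in the retreat was not tested.

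The regions were spread over the genome. They lay on 19 autosomes and on X, with 18 of 1608 eligible regions on chromosome 2 and 1 of 351 on X. The highest shares were 1.39% on chromosome 13 and 1.36% on chromosome 15, with 11 regions each, and the lowest on an autosome was 0.423% on chromosome 7. The median gap between neighbouring ones on a chromosome was 7.48 Mb, and 4 gaps were under 100 kb. The closest neighbours lay on chromosome 2, from 92204948 to 92207197 and from 92210720 to 92211554. Their summits lay further from each other in CuNZ@Gel, with moves of -812 bp in the first and 523.5 bp in the second, CuNZ@Gel minus Gel. On chromosome 18 the regions from 63110937 to 63112859 and from 63117879 to 63119738 had moves of -869.5 and 541 bp.

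Local background at the summit exceeded 2 times the library background in 2 regions. There it did so in every library, given here as multiples of that background: on chromosome 8 from 21189186 to 21189875 it was 5.31 and 6.06 times in CuNZ@Gel and 5.64 and 4.94 times in Gel, and on chromosome 11 from 3152368 to 3153424 it was 6.11 and 5.86 times in CuNZ@Gel and 7.62 and 7.88 times in Gel. Height here is over the library background alone, while the authors' fold enrichment over the local background was 2.14 to 4.40 in the first and 3.04 to 5.44 in the second.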

How the data were processed

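The deposited files used were 4 peak lists, 1 per immunoprecipitated library; the 2 deposited group lists were not used. The submitters' processing notes name MACS2 2.2.8 along with deepTools 3.5.6, SAMtools 1.17 and fastp, and build GRCm39. No aligner or setting of peak calling is given in the sources used here. Each list gives per peak a score, a fold enrichment ratio, a −log10 p, a −log10 q and the distance of the summit from the peak's start, all of them the authors' own values, deposited per library. Peaks were thus called per library. Summit fragments and local background were solved from fold and −log10 p, taken as (fragments + 1)/(background + 1) and a Poisson tail, which succeeded for 100% of peaks at a relative tolerance of 0.0001 and was tested on simulated data, as was the rule. The commonest background stands in for depth; library totals are not in the lists. Coordinates are 1-based.

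The rule used presence, width, fold enrichment and summit place in all 4 libraries, so CuNZ@Gel and Gel were not compared by a test, and all values are descriptions. The members and lists were chosen with earlier results of these data known. Regions are named as the 10 longest moves, the 10 with the highest fold enrichment in their weakest library and those with separate peaks at both positions in all libraries. The planned gene lists, marker check, gene starts and sequences were left out, as the tables given are of another build (GRCm38); no coordinates were converted. Python 3.11.15, numpy 2.4.6, pandas 2.3.3, scipy 1.17.1 and matplotlib 3.10.9 were used.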

Additional observations from a re-analysis of the deposited data

How the results depend on the processing

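No paired analysis was possible because no result comes from a test. Of 18 alternatives, 4 were added after seeing the data (20 or 40 fragments, 1 peak per library, the background limit). The count of moved summits was above both other pairings in 16, at 1.64 to 2.6 times the larger one. These 16 include the alternatives without CuNZ@Gel replicate 1 and without CuNZ@Gel replicate 2. The count was below both other pairings without Gel replicate 1 or without Gel replicate 2. The 4 alternatives that leave out a library do not bear on this order. In each of them the pairings with a lone CuNZ@Gel library had the larger counts. The counts for CuNZ@Gel against Gel, same-numbered and cross-numbered pairs were 486, 263 and 276 at 300 bp; 26, 9 and 10 at 1000 bp; 108, 49 and 50 with summits within 100 bp; 108, 46 and 43 with 20 fragments in every library; 23, 9 and 14 with 40; and 51, 23 and 26 with 1 peak in every library. Without any 1 library they ranged from 350 to 588, 251 to 433 and 275 to 432; a lone library has no replicate to hold to, which raises all of these. Membership moved more than the count when the summit of the widest peak was taken: 105 regions were shared, 62.1% of the 169 and 51.5% of the 204 found. Taking the peak with the lowest p, 155 of the 156 found were shared, and without any 1 library 139 to 151 of the 169 remained. The share with 1 peak over both positions in every library was 33.7%, 49.6% at 300 bp, 47.5% at or above the median score, 43.8% at a −log10 q of at least 5, 49.1% and 69.6% with 20 and 40 fragments, 76.5% with 1 peak in every library, and 36.9 to 47.4% without any 1 library. Moves to the higher coordinate were 50.3%, and 69.6% with 40 fragments, where the median of the lowest library was 46 against 23 fragments. Other causes of these differences were not tested. Alternatives for windows around gene starts were not run, as GRCm39 gene models were not used here. Depth limits single libraries: 10 to 70 summit fragments in CuNZ@Gel replicate 2.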

Other observations

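In regions with shorter moves than the 169, the covered stretch in CuNZ@Gel also ended inside that in Gel on both sides at the median, and further inside on the side of the Gel summit. Among regions with stable summits inside each treatment, 2179 had moves of 100 to under 300 bp; there the CuNZ@Gel peaks ended a median of 122.5 bp inside the Gel peaks on the side of the Gel summit and 59 bp inside on the side of the CuNZ@Gel summit, and the retreat was larger on the Gel side in 61.6%. In the 317 regions with moves of 300 to under 500 bp the medians were 171.5 and 49.5 bp, and the retreat was larger on the Gel side in 216 of them, or 68.1%. In the 10450 regions with moves of 1 to under 100 bp the medians were 88 and 74 bp, and the share was 52.6%. The CuNZ@Gel libraries were the shallower ones, and the part of depth in these values was not tested.

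On unplaced scaffolds, which entered none of the values above, 52 regions with peaks in all 4 libraries met the width conditions and 0 met the rule, which allows a share of up to 5.77%.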
